A study of Mus musculus with 16 samples.

Results

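Clearance of dying cells and of synaptic debris depends on a small set of surface receptors and on soluble proteins that bridge them to phosphatidylserine, a lipid that dying cells expose. Axl, Mertk and Tyro3 form the TAM family of receptor tyrosine kinases. Gas6 and Pros1 (protein S) bind phosphatidylserine with one end and TAM receptors with the other, Gas6 to all members of the family and Pros1 mainly to Tyro3 and Mertk. Mfge8 is a secreted bridge to integrins that contain the alpha v chain, among them the pair with Itgb5, the beta 5 chain. Cd36 is a scavenger receptor, and Megf10 is an engulfment receptor of astrocytes. In brain, Axl is best known from microglia, Tyro3 from neurons, and Mfge8 and Megf10 from astrocytes. These 9 genes were taken by symbol from a raw count table of 54532 entries. All 9 were found once, and all 9 passed the filter on low counts, as did 17736 entries in all.

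The table held RNA sequencing counts from 16 libraries, 1 per sample, of female mice at 9 months of age, in 4 groups of 4. Animals with Ch25h form 2 of them, Ch25h+/+ without tau (Tau-) and with it (Tau+), and the other two are the same pair in Ch25h-/-. Ch25h encodes cholesterol 25-hydroxylase, which makes an oxysterol, and -/- is read here as its loss. The labels give only the sign of Tau, which is read here as presence of a tau transgene. They name neither the transgene line and its promoter nor the kind of Ch25h deletion, nor whether the libraries of a group came from separate litters or days. The p-values therefore measure the spread between these samples.

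The sample labels give frontal cortex as the tissue, while the series text gives hippocampus. Cortex markers (Cux2, Rorb, Tbr1 and Fezf2) summed to 394 to 507 CPM (counts scaled to library size) and dentate and hippocampal markers (Prox1, Dsp, Lct and Trpc6) to 24.3 to 35.2 CPM, with the cortex sum higher in 16 of 16 libraries. Library totals were 15530352 to 25602500 counts. Ch25h had 5 to 30 counts in every Ch25h+/+ library and 0 in every Ch25h-/- library, where 3 counts would be 0.117 to 0.195 CPM. Prnp, whose promoter drives some tau transgenes, was at 708 to 839 CPM in Tau- and 1414 to 1935 CPM in Tau+. Mouse Mapt, the endogenous tau gene, was not called with tau in either genotype (log2 fold changes of -0.07 in Ch25h+/+ and 0.09 in Ch25h-/-). A ribosomal RNA transcript, CT010467.1, separated the libraries into 7 rRNA-rich ones (2289 to 5684 CPM on total counts), all Ch25h-/-, and 9 rRNA-poor ones (111 to 475 CPM). The only rRNA-poor Ch25h-/- library was Ch25h-/- Tau+ replicate 1, so Ch25h loss and this library class can hardly be told apart. Ch25h+/+ Tau+ replicate 1 also stood apart in its group, with the lowest summed CPM of astrocyte markers of any library (3726).

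Per kilobase of annotated exon, Tyro3, Gas6 and Mfge8 were the most abundant, with medians over the 16 libraries of 50.7, 50.3 and 47.3 CPM per kilobase. Their ranges overlapped, and Tyro3 was above Gas6 in only 6 of the 16 libraries. Itgb5 followed at 16.3 CPM per kilobase, then Axl at 10.4 and Mertk at 9.99, which overlapped in range. Megf10 (3.54 CPM per kilobase) and Pros1 (3.06) were lower and also overlapped. Cd36 was lowest at 0.197 CPM per kilobase, from 3 to 26 counts per library. The neuronal receptor and its ligand Gas6 were thus several times more abundant in this tissue than Axl, Mertk or Pros1.

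**Figure D1:**
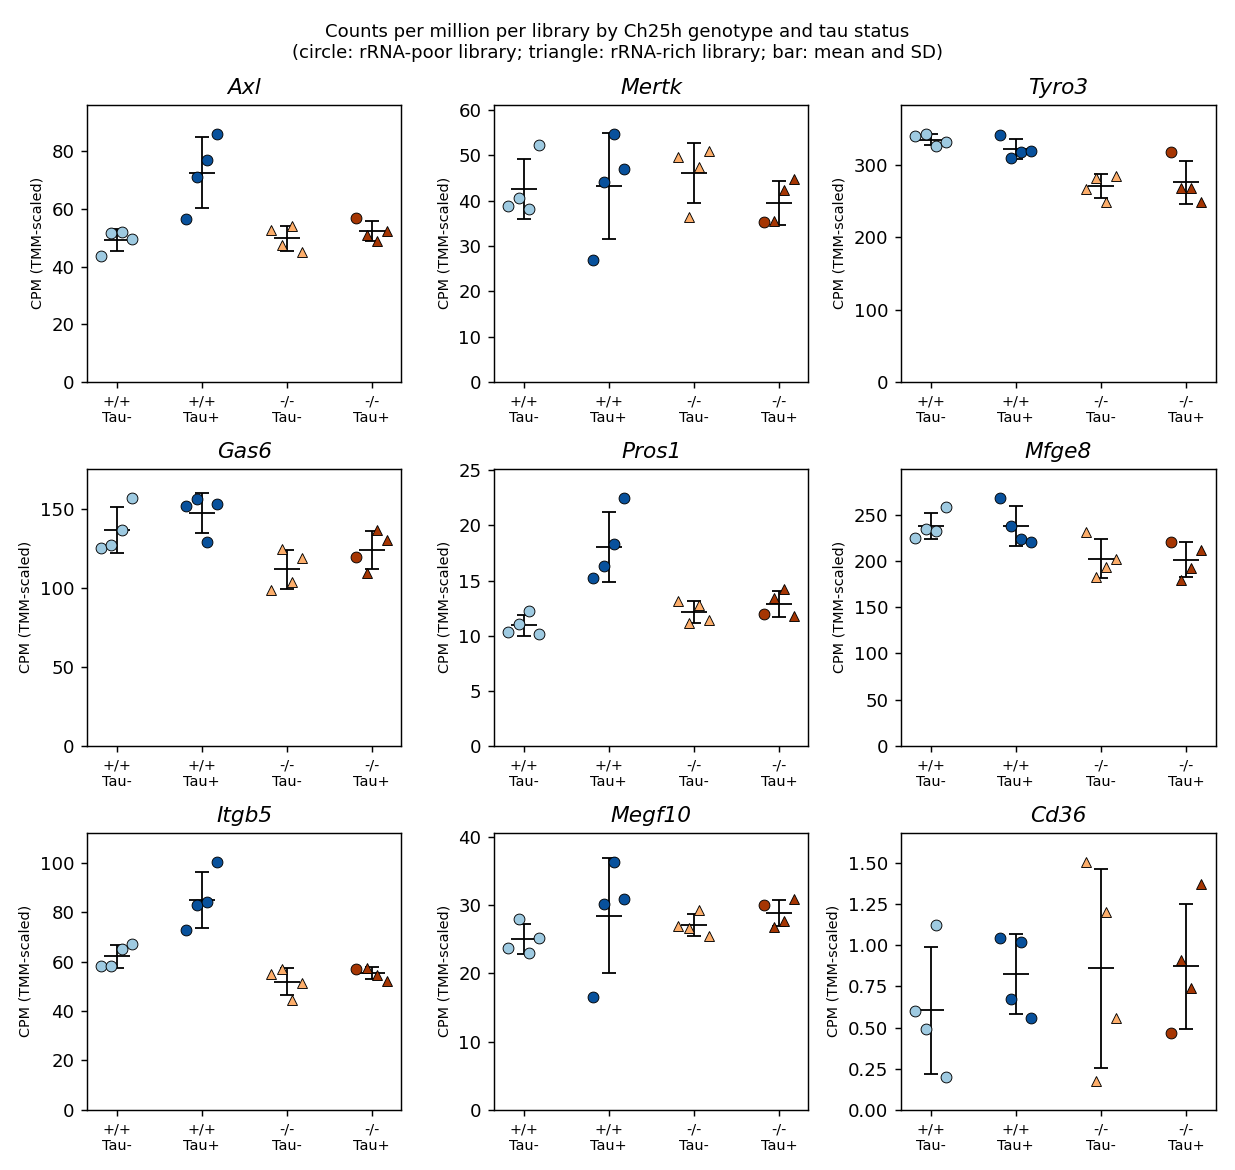
CPM (on TMM-scaled library sizes) of each gene in each library, by Ch25h genotype and tau status, with the group mean and SD as bars and rRNA-rich libraries as triangles. The 4 Ch25h+/+ Tau+ libraries lie above all 4 Ch25h+/+ Tau- libraries for Axl, Pros1 and Itgb5, and the groups overlap for the other genes in that comparison.

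Tau in the presence of Ch25h asks which uptake genes respond to the transgene. A receptor (Axl), a ligand (Pros1) and an integrin chain (Itgb5) were higher in Tau+, and no member was lower. These were 3 of the 9 members, where 1.47% of all genes tested were called higher 0.0902% lower and 1.56% in either direction (edgeR quasi-likelihood test, Benjamini-Hochberg adjustment over 17736 genes, adjusted p under 0.05). The same 3 members had no overlap between the 4 Tau+ and 4 Tau- libraries, a pattern found in 5.86% of all genes tested. The median log2 fold change over the 9 members was 0.19, against -0.01 over all genes tested. In bulk tissue, fewer cells of a type and less RNA per cell cannot be told apart.

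Axl (chromosome 7, 25757273 to 25788705, minus strand, GRCm38) is the TAM member known to rise in activated myeloid cells. It was at 43.6, 51.6, 52.1 and 49.7 CPM in the Ch25h+/+ Tau- libraries. In Ch25h+/+ Tau+ it was at 56.4, 71.1, 77.0 and 85.8 CPM. Every Tau+ library was above every Tau- library, and replicate 1 was the closest to them. The means were 49.3 ± 3.93 and 72.6 ± 12.4 CPM (SD, n = 4), a log2 fold change of 0.56 (standard error 0.11, 95% interval 0.34 to 0.78, edgeR adjusted p 0.00674). The call was kept in all 16 fits that each left out 1 library but not in a fit restricted to the Ch25h+/+ libraries (8 libraries; log2 fold change 0.57, adjusted p 0.0563).

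Pros1 (chromosome 16, 62854307 to 62929346, plus strand) encodes protein S, also a plasma anticoagulant. Its values were 10.3, 11.0, 12.3 and 10.1 CPM among Ch25h+/+ Tau- samples and 15.2, 16.3, 18.3 and 22.5 CPM in Ch25h+/+ Tau+. Tau+ libraries were again all above Tau- libraries. Its log2 fold change of 0.72 was larger than those of Axl and Itgb5, though the 3 intervals overlapped (standard error 0.12, 95% interval 0.47 to 0.98, edgeR adjusted p 0.00245). The Pros1 call was kept under each of the 26 alternative fits, with adjusted p of 9.89e-06 to 0.0243.

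Itgb5 (chromosome 16, 33829665 to 33949338, plus strand) is the beta chain of an Mfge8 receptor. It was at 58.2, 58.3, 65.0 and 66.9 CPM in Ch25h+/+ Tau- and at 72.8, 83.0, 84.1 and 100.2 CPM in Ch25h+/+ Tau+. Again no Tau+ library reached down to a Tau- library. The log2 fold change was 0.45 (standard error 0.09, 95% interval 0.26 to 0.65, edgeR adjusted p 0.0140). Leaving out Tau+ replicate 4, or Tau- replicate 1 or 2, of Ch25h+/+ ended this call (log2 fold changes of 0.37 to 0.53 over the 16 such fits), as did restricting the fit to those 8 libraries (0.46, adjusted p 0.0725).

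Mertk (chromosome 2, 128698956 to 128802894, plus strand), the TAM receptor most closely tied to phagocytosis in resting tissue, was not called. It was at 38.9, 40.6, 38.2 and 52.3 CPM in Ch25h+/+ Tau- and at 27.0, 44.2, 54.6 and 47.0 CPM in Ch25h+/+ Tau+. The lowest of all 16 libraries was Ch25h+/+ Tau+ replicate 1, and the groups overlapped. The log2 fold change was 0.03 (95% interval -0.32 to 0.38, edgeR adjusted p 0.993), and this interval overlapped those of Axl and Itgb5. Without replicate 1 the log2 fold change was 0.20 (adjusted p 0.608).

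Tyro3 (chromosome 2, 119797733 to 119818104, plus strand) was at 326 to 343 CPM in the 4 Ch25h+/+ Tau- libraries and at 310 to 342 CPM in the 4 Ch25h+/+ Tau+ libraries, with 3 of these below every Tau- library. Its log2 fold change of -0.06 had a narrow interval of -0.21 to 0.10 (edgeR adjusted p 0.947). Gas6 (chromosome 8, 13465374 to 13494490, minus strand) gave 0.11 (95% interval -0.09 to 0.31, adjusted p 0.859). Mfge8 (chromosome 7, 79133768 to 79149060, minus strand) gave 0.00 (-0.19 to 0.18, adjusted p 0.999). The abundant ligands and the neuronal receptor therefore had intervals below that of Axl (0.34 to 0.78). Differences between genes were not tested.

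Megf10 (chromosome 18, 57133090 to 57297467, plus strand) was at 23.0 to 28.0 CPM in Ch25h+/+ Tau- and at 16.5, 30.2, 36.3 and 30.9 CPM in Ch25h+/+ Tau+. Tau+ replicates 2, 3 and 4 were above every Tau- library and replicate 1 was below every one. The log2 fold change was 0.19 (95% interval -0.14 to 0.52, edgeR adjusted p 0.844). Without replicate 1 it was 0.38 and passed (adjusted p 0.0393), so this 1 library decided the call. Cd36 (chromosome 5, 17781690 to 17888801, minus strand) was not called, with a log2 fold change of 0.41. Its interval of -0.69 to 1.51 spans both signs, so no direction can be stated. Its counts were low, and the cause of the wide interval was not tested.

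**Figure D2:**
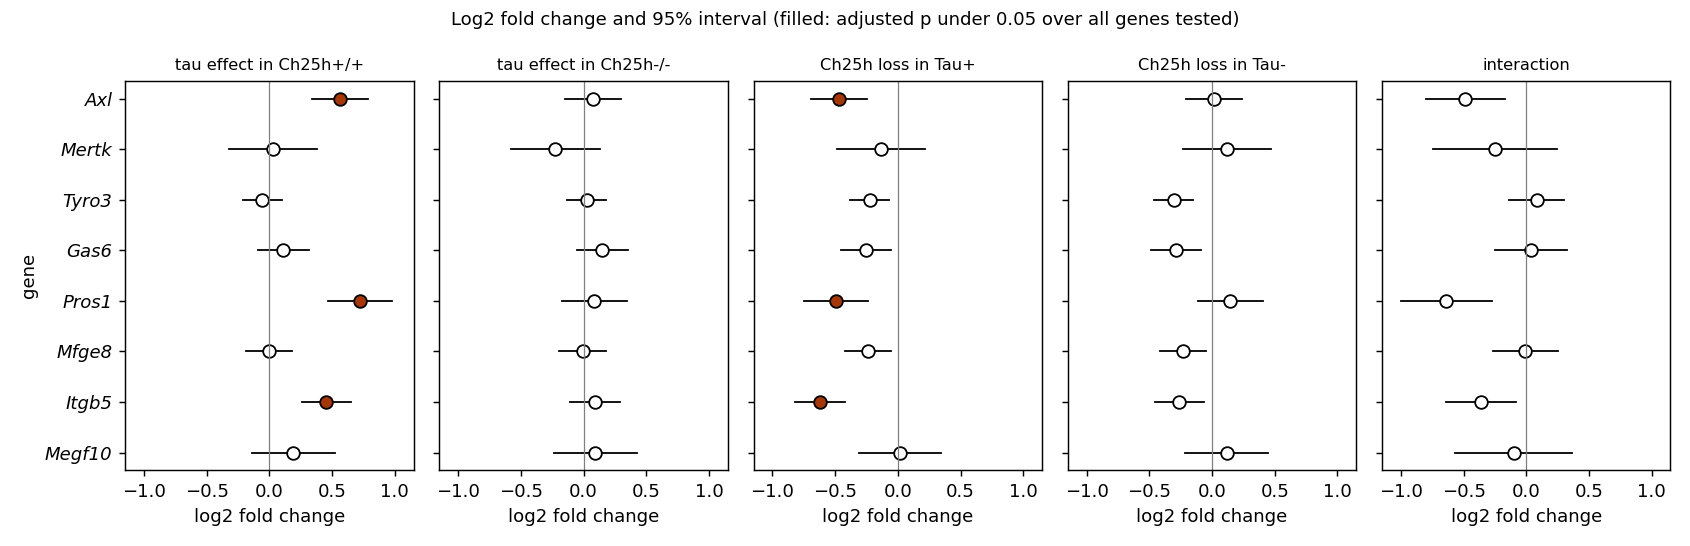
Log2 fold change (points) with 95% interval (lines) of 8 genes in the 5 comparisons, from the edgeR fit of all 16 libraries; filled points passed an adjusted p of 0.05 over all genes tested. Cd36, whose intervals span more than 2 log2 units, is left out. Filled points appear for Axl, Pros1 and Itgb5 only, at 0.56, 0.72 and 0.45 for tau in Ch25h+/+ and at -0.47, -0.49 and -0.62 for Ch25h loss in Tau+.

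The promoters of the 3 genes that were higher are shown with that of Mertk, which was not called. They are the 250 bases before the RefSeq start site (GRCm38.p6), in gene direction, with matches to the motifs searched in capitals, and RefSeq windows were found for 8 of the 9 members.
Axl (chr7:25788734-25788983, minus strand): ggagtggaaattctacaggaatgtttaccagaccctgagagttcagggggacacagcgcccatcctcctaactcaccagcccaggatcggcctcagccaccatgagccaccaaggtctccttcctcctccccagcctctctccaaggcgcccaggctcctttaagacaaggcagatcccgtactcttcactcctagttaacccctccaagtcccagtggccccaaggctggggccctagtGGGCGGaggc
Pros1 (chr16:62854057-62854306, plus strand): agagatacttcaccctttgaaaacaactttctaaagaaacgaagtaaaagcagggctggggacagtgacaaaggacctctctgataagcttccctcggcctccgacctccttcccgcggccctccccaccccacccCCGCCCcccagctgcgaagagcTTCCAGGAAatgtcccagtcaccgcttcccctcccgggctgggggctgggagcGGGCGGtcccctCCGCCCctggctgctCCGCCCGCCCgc
Itgb5 (chr16:33829415-33829664, plus strand): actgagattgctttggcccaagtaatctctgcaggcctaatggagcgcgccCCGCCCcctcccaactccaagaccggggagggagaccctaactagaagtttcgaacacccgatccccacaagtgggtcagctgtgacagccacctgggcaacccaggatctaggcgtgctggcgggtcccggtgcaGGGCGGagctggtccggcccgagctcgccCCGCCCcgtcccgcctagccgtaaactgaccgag
Mertk (chr2:128698665-128698914, plus strand): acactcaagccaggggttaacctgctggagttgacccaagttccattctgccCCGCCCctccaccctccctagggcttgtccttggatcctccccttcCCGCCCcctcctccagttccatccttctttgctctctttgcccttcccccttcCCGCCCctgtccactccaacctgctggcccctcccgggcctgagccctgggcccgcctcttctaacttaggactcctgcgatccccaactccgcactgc

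Motifs were searched on both strands of these windows and of all 32851 RefSeq windows, and a match is a description of letters only. The GC box GGGCGG was in all 4 windows shown, with 1 match in Axl, 5 in Pros1 (of which 2 overlap), 3 in Itgb5 and 3 in Mertk, and in 32.7% of all windows. The STAT element TTCNNNGAA was found in Pros1 only among the 8 members, as TTCCAGGAA, and in 7.02% of all windows. No member window held the core of the interferon element ISRE (2.98% of all windows), the PU.1 core GAGGAAGT (2.44%), the NF-kappaB site (1.21%) or TGANTCA, the AP-1 form (6.75%). The same was true of the DR4 direct repeat known from LXR binding, which was in 0.0152% of all windows.

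Tau in the absence of Ch25h puts the same question to Ch25h-/- animals. None of the 9 members passed in either direction (edgeR quasi-likelihood test), where 0.0395% of all genes tested did, 0.0282% higher and 0.0113% lower. None had an unadjusted p under 0.05, where 3.68% of all genes tested did, and DESeq2 and limma-voom also called 0. No member had groups without overlap, against 2.14% of all genes tested.

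Axl was at 52.8, 47.4, 53.9 and 45.1 CPM in Ch25h-/- Tau- and at 57.0, 50.9, 48.9 and 52.5 CPM in Ch25h-/- Tau+. Only replicate 1 of Tau+ was above the Tau- range. The log2 fold change was 0.07 (95% interval -0.15 to 0.30). Pros1 was at 13.1, 11.1, 12.8 and 11.4 CPM in Ch25h-/- Tau- and at 11.9, 13.4, 14.3 and 11.8 CPM in Ch25h-/- Tau+, a log2 fold change of 0.09 (-0.17 to 0.34). Itgb5 was at 54.9, 57.0, 44.5 and 51.1 CPM in Ch25h-/- Tau- and at 56.9, 57.4, 54.4 and 52.2 CPM in Ch25h-/- Tau+, a log2 fold change of 0.09 (-0.11 to 0.29). For each of these 3 genes the interval leaves out the estimate found in Ch25h+/+. That estimate has its own error, and for Itgb5 the intervals of the 2 genotypes overlap (0.26 to 0.65 in Ch25h+/+). The interaction term, given below, did not pass for any of the 3.

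Mertk was at 49.7, 36.4, 47.5 and 50.9 CPM in Ch25h-/- Tau- and at 35.2, 35.6, 42.4 and 44.8 CPM in Ch25h-/- Tau+. Replicates 1 and 2 of Tau+ were below the Tau- range, and the rest overlapped. Its log2 fold change was -0.22 (95% interval -0.58 to 0.13), which did not pass. Megf10 lay between 25.5 and 31.0 CPM in all 8 Ch25h-/- libraries. Gas6, Tyro3 and Mfge8 gave 0.15, 0.03 and -0.01 on the log2 scale, none of which passed.

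The interaction term compares the tau effect in Ch25h-/- with that in Ch25h+/+. The effect was lower in Ch25h-/- by 0.49 for Axl (standard error 0.15, unadjusted p 0.00445), by 0.64 for Pros1 (0.17, unadjusted p 0.00166) and by 0.36 for Itgb5 (0.13, unadjusted p 0.0141), all on the log2 scale. None of the 9 members passed after adjustment (edgeR adjusted p 0.512, 0.339 and 0.853 for these 3), and DESeq2 and limma-voom called 0 as well. The 3 genes were also the only members with an unadjusted p under 0.05, which 4.13% of all genes tested had. Over the 25 alternatives the lowest adjusted p was 0.0676 for Axl, 0.142 for Pros1 and 0.240 for Itgb5. Of all genes tested 0.0338% passed. A difference in tau effect between the genotypes was thus not shown for any member.

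Ch25h loss in Tau+ compares transgenic animals with and without the enzyme. It shares the Ch25h+/+ Tau+ libraries with the first comparison, so that a high value there enters both with opposite sign. Axl, Pros1 and Itgb5 were lower in Ch25h-/- and no member was higher. These 3 of 9 stand against 2.40% of all genes tested called lower, 1.14% called higher and 3.55% called in either direction (edgeR quasi-likelihood test, adjusted p under 0.05). Pros1 and Itgb5 had no overlap of the groups, against 10.2% of all genes tested. The members' median log2 fold change was -0.24, against 0.00 over all genes.

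Itgb5 had the largest log2 fold change of the members, from 85.0 ± 11.3 CPM in Ch25h+/+ Tau+ to 55.2 ± 2.41 CPM in Ch25h-/- Tau+ (SD, n = 4). Its log2 fold change was -0.62 (standard error 0.09, 95% interval -0.82 to -0.42, edgeR adjusted p 0.00169). The Pros1 means were 18.1 ± 3.20 and 12.9 ± 1.20 CPM (SD, n = 4), a log2 fold change of -0.49 (standard error 0.12, adjusted p 0.0352). For Axl they were 72.6 ± 12.4 and 52.3 ± 3.42 CPM (SD, n = 4), a log2 fold change of -0.47 (standard error 0.11, adjusted p 0.0264), and 3 of the 4 Ch25h-/- libraries were below every Ch25h+/+ library. In all 3 genes the Ch25h-/- Tau+ libraries were close together and the Ch25h+/+ Tau+ libraries were spread, from 15.2 to 22.5 CPM for Pros1.

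With the rRNA class as a term none of the 3 kept its call, though the estimates were -0.58 for Itgb5, -0.60 for Pros1 and -0.35 for Axl (edgeR adjusted p 0.437, 0.769 and 0.976). That fit leaves 1 Ch25h-/- library in the class of the controls. In that library Itgb5 was at 56.9 CPM and Pros1 at 11.9 CPM, each below all 4 Ch25h+/+ Tau+ libraries. Its Axl value of 57.0 CPM was just above the lowest of them. The Axl and Pros1 calls were also lost on leaving out Ch25h+/+ Tau+ replicate 4 (-0.39 and -0.38) or any of replicates 2, 3 and 4 of Ch25h-/- Tau+, and in a fit of the Tau+ libraries alone, while Itgb5 kept its call in all of these. With GC-corrected offsets Axl was at -0.36 and lost its call (adjusted p 0.100), and the other two kept theirs.

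Tyro3 showed the closest link to the library class. It was at 318 CPM in the rRNA-poor library Ch25h-/- Tau+ replicate 1 and at 268, 268 and 249 CPM in the other 3 libraries of that group, and the 4 Ch25h+/+ Tau+ libraries were at 310 to 342 CPM. Replicate 1 thus lay among the Ch25h+/+ libraries and the others below all of them. The log2 fold change for Ch25h loss in Tau+ was -0.22 (95% interval -0.38 to -0.07, edgeR adjusted p 0.0873). It was -0.02 with the class as a term. Without replicate 1 it was -0.32 and passed (adjusted p 0.0124), as it did with DESeq2 (-0.23, adjusted p 0.0312) and limma-voom (-0.25, adjusted p 0.020).

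Gas6 and Mfge8 gave -0.25 and -0.24 in the same comparison (95% intervals -0.45 to -0.05 and -0.42 to -0.05, edgeR adjusted p 0.124 and 0.116). Mfge8 was at 221 CPM in replicate 1 of Ch25h-/- Tau+ and at 179 to 212 CPM in the rRNA-rich ones, and it passed without replicate 1 (-0.30, adjusted p 0.0484). With GC-corrected offsets both genes were at -0.09, and with the class as a term Gas6 was at -0.31 and Mfge8 at -0.10. Gas6 had 120 CPM in replicate 1, within the 110 to 137 CPM of the other 3. Mertk (-0.13, interval -0.48 to 0.22) and Megf10 (0.02, -0.31 to 0.35) did not pass.

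**Figure D3:**
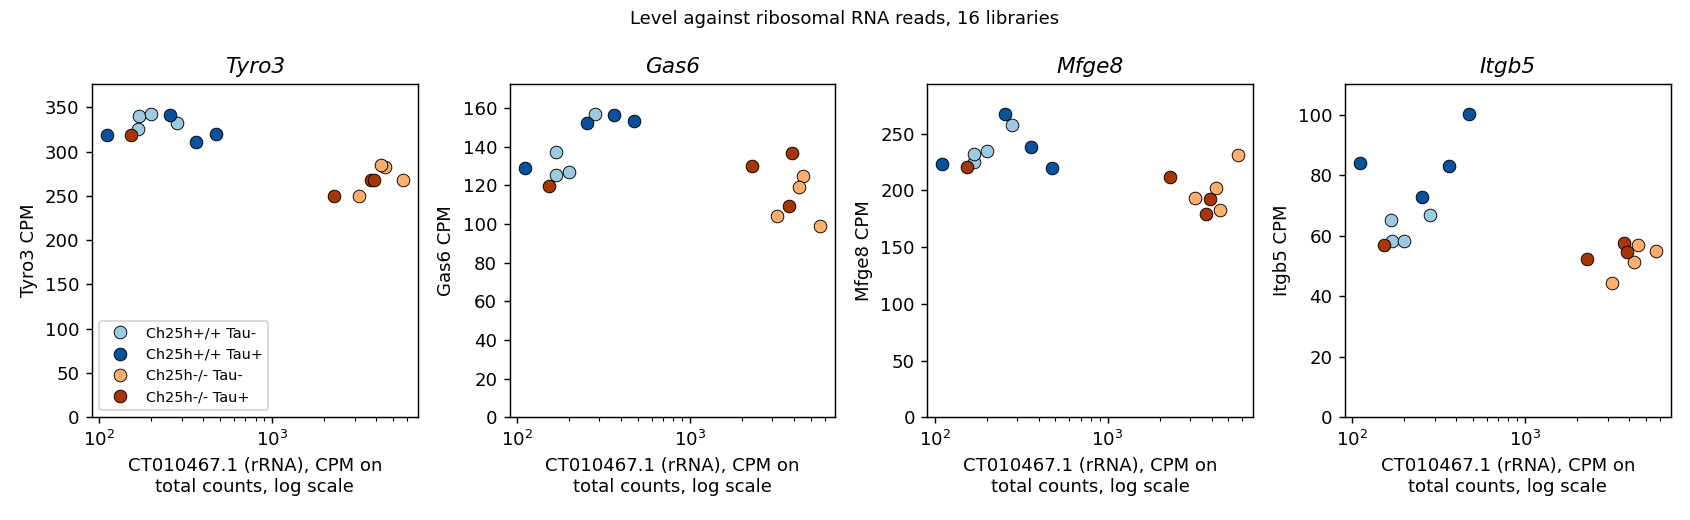
CPM of Tyro3, Gas6, Mfge8 and Itgb5 (vertical axes, from 0) against CPM of the ribosomal RNA transcript CT010467.1 on total counts (log axis) in the 16 libraries. The 7 rRNA-rich libraries hold Tyro3 at 249 to 285 CPM and the 9 others at 310 to 343 CPM, with Ch25h-/- Tau+ replicate 1 among the latter at 318 CPM, while Itgb5 in that library (56.9 CPM) lies with the other Ch25h-/- libraries.

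Ch25h loss in Tau- asks what absence of the enzyme does without the transgene. None of the 9 members passed (edgeR quasi-likelihood test), against 1.03% of all genes tested, 0.214% higher and 0.812% lower. DESeq2 and limma-voom each called 1, which was Tyro3. Tyro3, Gas6 and Itgb5 had no overlap between the groups, all lower in Ch25h-/-, but 16.2% of all genes tested had none in this comparison. These 3 and Mfge8 were the 4 members with an unadjusted p under 0.05, which 20.9% of all genes tested had.

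Tyro3 was at 341, 343, 326 and 333 CPM in Ch25h+/+ Tau- and at 268, 283, 250 and 285 CPM in Ch25h-/- Tau-. The log2 fold change was -0.31 (standard error 0.07, edgeR adjusted p 0.0523), and it was -0.02 with the library class as a term. That term rests on Ch25h-/- Tau+ replicate 1, the only rRNA-poor Ch25h-/- library, and not on any Tau- library. Gas6 was at 126, 127, 137 and 157 CPM against 99.0, 125, 104 and 119 CPM (log2 fold change -0.29, standard error 0.10). Mfge8 gave -0.23 (0.09) and Itgb5 -0.26 (0.09). All 4 Ch25h-/- Tau- libraries were rRNA-rich and all 4 controls rRNA-poor, so genotype and class cannot be told apart here.

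These 4 genes also had the highest GC content among the members, taken over the longest transcript of each, at 55.4% for Tyro3, 56.6% for Gas6, 56.2% for Mfge8 and 57.0% for Itgb5. The other 5 were between 38.4% (Cd36) and 54.2% (Axl). With GC-corrected offsets, which take out the relation of a library's counts to GC, the log2 fold changes in Tau- were -0.19 for Tyro3, -0.14 for Gas6, -0.09 for Mfge8 and -0.10 for Itgb5. Without that correction, Axl (0.02, 95% interval -0.21 to 0.24), Mertk (0.12, -0.23 to 0.47), Pros1 (0.15, -0.11 to 0.40) and Megf10 (0.12, -0.21 to 0.45) had intervals that include 0.

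Some microglia markers moved with the same comparisons. The summed CPM of 8 markers (Csf1r, P2ry12, Tmem119 and Cx3cr1 among them) ran from 289 to 311 without tau and from 369 to 471 with tau in Ch25h+/+. In Ch25h-/- it ran from 275 to 318 without tau and from 283 to 347 with it. No marker was at 0. With tau in Ch25h+/+, 3 of the 8 rose, Csf1r and Cx3cr1 among them, and with Ch25h loss in Tau+ 4 fell, among them Csf1r, Cx3cr1 and Tmem119. The 5 not called with tau were at 0.66 (Aif1), 0.25 (Fcrls), 0.20 (Siglech), 0.17 (P2ry12) and 0.02 (Tmem119) on the log2 scale. The 4 not called with Ch25h loss in Tau+ were at -0.65 (Aif1), -0.52 (Fcrls), 0.21 (Siglech) and 0.23 (P2ry12).

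Set against these markers, Axl was 1.06 times as high with tau in Ch25h+/+, with 3 of 4 Tau+ libraries above every control and replicate 1 among them. Its ratio to the summed microglia CPM was 0.165 ± 0.013 in Ch25h+/+ Tau- and 0.176 ± 0.015 in Ch25h+/+ Tau+ (SD, n = 4; exact two-sided permutation p 0.343, adjusted p 0.686 over 12 tests). The Itgb5 ratio was 0.209 ± 0.013 and 0.207 ± 0.007 in the same groups (SD, n = 4; exact permutation p 0.857). With Ch25h loss in Tau+ the Itgb5 ratio was 0.860 times that of the controls, with all 4 libraries below all 4 controls (exact permutation p 0.0286, the smallest that 4 against 4 allows; adjusted p 0.343). In Tau- it was 0.847 times that of the controls, with 3 of 4 libraries below them all (exact permutation p 0.0857, adjusted p 0.343). The Mertk ratio was 0.731 times as high with tau in Ch25h+/+, with 3 of 4 Tau+ libraries below every control (exact permutation p 0.0857, adjusted p 0.343). It was 0.815 times as high with tau in Ch25h-/- (exact permutation p 0.114, adjusted p 0.343). Over the 16 libraries Mertk followed Megf10 (Pearson's r 0.67) more closely than Axl (0.23). How much of the Mertk RNA came from microglia was not tested. No ratio passed after adjustment, and with 4 against 4 libraries a single ratio at the smallest p could not.

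**Figure D4:**
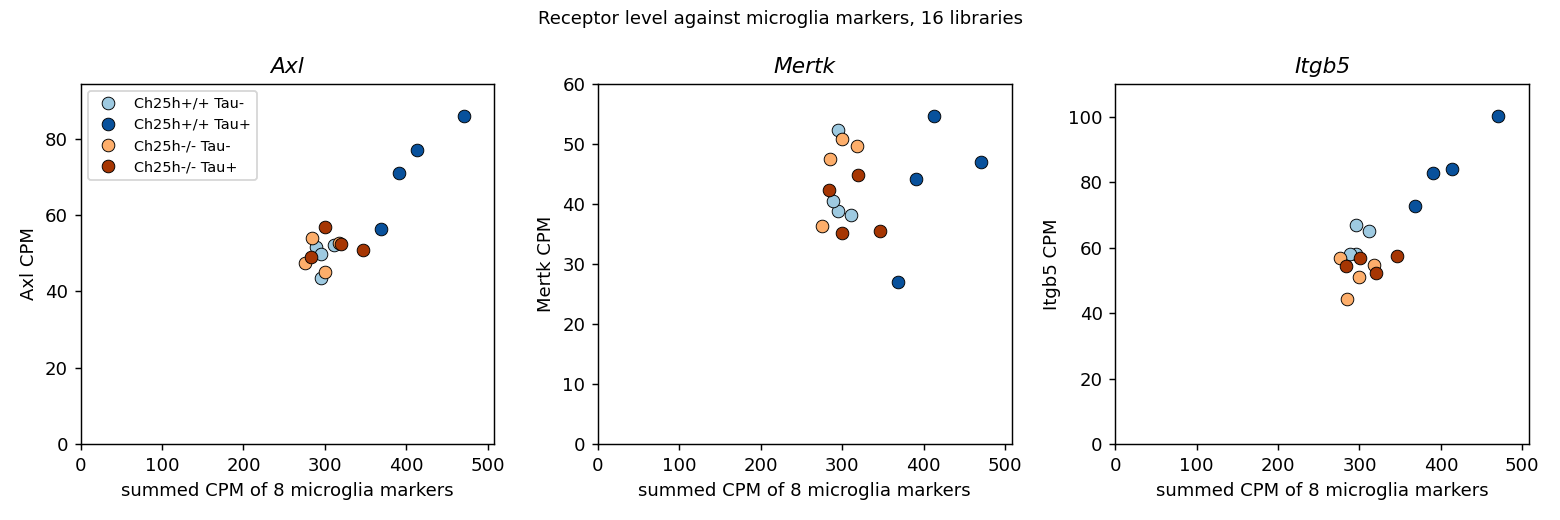
CPM of Axl, Mertk and Itgb5 (vertical axes, from 0) against the summed CPM of 8 microglia markers (horizontal axes, from 0), 1 point per library, coloured by group. The Ch25h+/+ Tau+ libraries, at 369 to 471 summed CPM, extend the Axl and Itgb5 points upward to 85.8 and 100.2 CPM, while Mertk in the same libraries lies between 27.0 and 54.6 CPM.

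Of 8 astrocyte markers 1 rose with tau in Ch25h+/+ (Gfap, log2 fold change 2.46), and their sum was 3726 to 6084 CPM there against 3770 to 4080 CPM in Ch25h+/+ Tau-. Of 6 border macrophage markers 1 rose (Ms4a7, 1.83), with a median log2 fold change of 0.67 over the 6 (0.37 over the 8 microglia markers) and sums of 11.2 to 20.1 against 5.34 to 13.3 CPM. With Ch25h loss in Tau+ 2 astrocyte markers fell (Gfap, -1.96, and Aldoc, -0.33), as did Ms4a7 (-1.39). The 6 meningeal fibroblast markers summed to 79.6 to 162 CPM in Ch25h+/+ Tau+ and 49.1 to 94.1 CPM in Ch25h+/+ Tau-, with a median log2 fold change of 0.75, and none was called. No marker of neurons, oligodendrocytes, their precursors, endothelium, pericytes, meningeal fibroblasts, choroid plexus or blood passed in any of the 5 comparisons. Median log2 fold changes with tau in Ch25h+/+ were 0.35 for pericytes and smooth muscle, 0.28 for oligodendrocytes, 0.24 for astrocytes and -0.02 for neurons. With Ch25h loss in Tau+ they were -0.29, -0.26, -0.17 and 0.01 in the same order. For microglia the median was -0.45 there, and for choroid plexus 0.47. Choroid plexus markers ranged from 15.8 to 2737 CPM between libraries of all groups, and with their score as a term the members called for tau in Ch25h+/+ and for Ch25h loss in Tau+ still numbered 3 each. The part of these other cell types in the members' changes was not tested.

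Of 84 other genes of apoptotic cell uptake, 78 were tested. In Ch25h+/+, 8 were higher with tau and 0 lower, against 1.47% and 0.0902% of all genes tested, with a median log2 fold change of 0.08 over the 78 and -0.01 over all genes. Among uptake receptors these were 3 of 16, namely Trem2, the microglial lipid receptor (13.3 ± 0.95 to 30.9 ± 7.47 CPM; log2 fold change 1.21, standard error 0.15, edgeR adjusted p 0.000207), Cd14, a co-receptor for bacterial lipids that also binds dying cells (1.31, 0.28, adjusted p 0.0176), and Havcr2. Among 7 ligands it was Lgals3 (galectin-3, 0.679 ± 0.454 to 3.86 ± 3.56 CPM, n = 4; 2.48, 0.54, adjusted p 0.0203). Without Ch25h+/+ Tau+ replicate 4, which held 9.20 CPM, the Lgals3 value was 1.59 and that of Cd14 was 0.89, and neither passed. Both calls were also lost in the fit of the Ch25h+/+ libraries alone and without Tau- replicate 1 or 4 of Ch25h+/+, and that of Lgals3 without replicate 2.

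The engulfment machinery gave 2 of 15, the leukocyte Rac activator Dock2 (log2 fold change 0.96, standard error 0.19, edgeR adjusted p 0.00822) and Rac2. Of 8 find-me and do-not-eat-me genes the fractalkine receptor Cx3cr1 rose (0.51, standard error 0.11, adjusted p 0.0229), though it did not pass on leaving out Tau+ replicate 3 or 4 or Tau- replicate 1, 2 or 4 of Ch25h+/+, nor in the fit of those 8 libraries alone. None of the 9 tested genes for phosphatidylserine exposure and none of the 14 for digestion and nuclear receptors passed. The list of 9 genes of TAM shedding and signalling is not broken down here. Havcr2 and Rac2 were named after their values were seen.

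With Ch25h loss in Tau+ 9 of the 78 were lower and 0 higher, against 2.40% and 1.14% of all genes tested, with a median log2 fold change of -0.06. Trem2 (log2 fold change -1.22, standard error 0.16), Dock2 (-0.93, 0.19), Lgals3 (-2.74, 0.56), Cd14 (-1.36, 0.28) and the lysosomal nuclease Dnase2a (-0.72, 0.15) had edgeR adjusted p of 0.000432 to 0.0191. The others were Havcr2, Rac2, Cx3cr1 and P2ry6, a nucleotide receptor, of which Havcr2, Rac2 and P2ry6 were named after their values were seen. Of the 5 with values, all except Trem2 lost their call without Ch25h+/+ Tau+ replicate 4, where Lgals3 was at -1.86, and without Ch25h-/- Tau+ replicate 3 (Dock2 and Lgals3) or 4 (Cd14, Lgals3 and Dnase2a). These 4 also lost it in the fit of the Tau+ libraries alone, and Dnase2a with GC-corrected offsets (-0.59). With the rRNA class as a term the 5 calls were lost, at -1.35 for Trem2 (adjusted p 0.0904, the smallest), -1.21 for Dock2, -3.03 for Lgals3, -1.40 for Cd14 and -0.65 for Dnase2a. Tau in Ch25h-/-, Ch25h loss in Tau- and the interaction each gave 0 of the 78 (edgeR), where 0.0395%, 1.03% and 0.0338% of all genes tested were called. At an unadjusted p under 0.05 there were 2, 8 and 14 of the 78, against 3.68%, 20.9% and 4.13% of all genes tested.

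For each member the 2 genes whose log2(CPM + 0.5) followed it most closely over the 16 libraries were named, out of 14480 (14481 for Cd36) with a mean of at least 1 on that scale. Pearson's r is a description here, since the libraries share groups and library class. Axl was followed by Flnc and Abhd4 (r 0.94 and 0.94), Pros1 by Plek and Csf1 (0.95 and 0.95), and Itgb5 by Ctsz and Dhrs3 (0.95 and 0.94). Mertk was nearest to Aff1 and Hif3a (0.93 and 0.88), and Megf10 to Flt1 and Ttc28 (0.94 and 0.93). Tyro3 was nearest to Pip4p1 and Adap1 (0.96 and 0.96), Gas6 to Ccnd3 and Acadvl (0.90 and 0.88), Mfge8 to Rpl38-ps2 and Gm4332 (0.94 and 0.92), and Cd36, at few counts, to Tmem255a and Gabrg1 (0.80 and 0.80).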

How the data were processed

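RNA was measured in 16 libraries, in 4 groups of 4 by genotype label. Per the labels' protocols, PureLink columns gave the RNA and a SMARTER mRNA-Seq kit the libraries. The authors deposited raw counts per gene, with no normalization. The submitters' processing notes name STAR 2.7 and the builds GRCm38 and mm10. The counting program and use of strand are not given in the sources used here, so Gas6, which shares 34 exon bases with Tmem255b on the opposite strand, could hold some of its reads.

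Genes were filtered with filterByExpr, which kept at least 99.86% of each library's counts, and tested with edgeR 4.0.16 in R 4.3.3 (quasi-likelihood F test, two-sided, TMM) in 1 fit of all 16 libraries, with Benjamini-Hochberg adjustment over all genes tested. Standard errors were the log2 fold change divided by the square root of F. The fit was also run on counts simulated from its own estimates of spread, without a library class. The outcome is not given here, and that run cannot speak to the class. CPM used TMM-scaled library sizes unless total counts are named. Exon lengths, positions and GC content came from GENCODE M21 (GRCm38), promoters from RefSeq. Intervals of 95% rest on these libraries, and floors of 3 counts cover counting error only, since reads carry no molecular identifiers.

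Members, lists, rules and tests were chosen with earlier results of these data known. All 9 members were named, and of the other uptake genes up to 5 per comparison with the smallest adjusted p. The region markers were chosen later. Some genes of the lists are not reported here by name. Alternatives were other size factors, 2 other count filters, DESeq2 1.42.0, limma-voom (limma 3.58.1), covariates for rRNA class (at least 1000 CPM of CT010467.1) and choroid plexus score, GC-corrected offsets, fits of 8 libraries, and leaving out each library. Leaving out 2 libraries together was added after seeing the data.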

Additional observations from a re-analysis of the deposited data

Results flagged for a closer look

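In 36 sets of 4 libraries (9 genes, 4 groups), 2 held a library far from the other 3 by Dixon's criterion, where chance gives about 1 in 20. Mertk was 52.3 CPM in Ch25h+/+ Tau- replicate 4, with the others at 38.2 to 40.6 CPM. Gas6 was 129 CPM in Ch25h+/+ Tau+ replicate 3, with the others at 152 to 156 CPM.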

How the results depend on the processing

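No paired analysis was possible because the labels number no replicates, so the numbers used here are only names. For tau in Ch25h+/+, 3 members passed and the count was 1 (Pros1) in the fit of the 8 libraries compared and 2 to 4 with a library left out. For Ch25h loss in Tau+, 3 passed, and the count was 0 with the rRNA class as a covariate, 1 (Itgb5) in the fit of the 8 libraries and 1 to 5 with a library left out (1 without Ch25h+/+ Tau+ replicate 4 or Ch25h-/- Tau+ replicate 2, 3 or 4; 5 without Ch25h-/- Tau+ replicate 1). For Ch25h loss in Tau-, 0 passed, and the count was 1 (Tyro3) with DESeq2, limma-voom, the choroid plexus score, the 8 libraries, both replicates 1 of Tau+ left out together (added after seeing the data), and without either of these libraries. For tau in Ch25h-/- and the interaction it was 0 under every alternative run. No called member changed sign; sign changes of values called under neither setting were not counted. The cause of these changes was not tested.

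Counts over all genes moved more. For tau in Ch25h+/+ 277 genes passed, 424 with DESeq2 and 498 with limma-voom, and 160 to 299 with a library left out. For tau in Ch25h-/- it was 7, with 28 unfiltered, 2 at a mean of 50 counts, 14 with DESeq2 and 6 to 13 with a library left out. For Ch25h loss in Tau+ it was 629, with 1494 (DESeq2), 1883 (limma-voom), 10 (rRNA class), 188 (GC offsets), 106 (8 libraries), 1269 (both left out) and 108 to 1691 with a library left out. For Ch25h loss in Tau- it was 182, with 522 unfiltered, 1124 (DESeq2), 1388 (limma-voom), 0 (rRNA class), 13 (GC offsets), 1229 (8 libraries), 1822 (both left out) and 3 to 1306 with a library left out. For the interaction it was 6, with 57 unfiltered, 55 (DESeq2), 3 (rRNA class), 11 (choroid plexus), 10 (both left out) and 0 to 22 with a library left out. The ratios to microglia markers passed under none of their alternatives. With 3 against 4 libraries the exact test cannot pass after adjustment. Cd36 was at 3 to 26 counts, and the cause of its wide intervals was not tested.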
